A study of Mus musculus with 9 samples.

Results

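Mitochondrial ribosomal protein genes are nuclear genes whose products build the ribosome inside mitochondria. They were taken here as every row of the deposited tables whose symbol began with Mrpl or Mrps followed by a number. This gave 78 genes, all present in the table of 16367 genes for retinal cells sorted from mice and in the table of 17035 genes for cultured Müller glia. By place in the ribosome, 26 belonged to the small subunit and 51 to the large subunit. The symbols alone give 29 Mrps and 49 Mrpl genes, but the products of Mrps18a and Mrps30 sit in the large subunit, and Mrps36 encodes a component of the alpha-ketoglutarate dehydrogenase complex and was counted in neither.

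The series was made to study lipoxin B4 and TRPV4 in the gliosis of Müller cells, the main glia of the retina, when the pressure in the eye is high; no library used here was labelled as lipoxin-treated. All mice were wild type, and each of the 3 groups had 3 RNA sequencing libraries. In the ocular hypertension group (OHT) both eyes had received 1.2 µL of silicone oil in the anterior chamber, and in the sham group the cornea was cut and no oil was given. For both groups, neural retinas were pooled by 4, digested with papain, cleared of dead cells and sorted on magnetic beads through an antibody against GLAST, a glutamate transporter that astrocytes carry as well. The culture group was untreated primary Müller glia from C57BL/6J pups 8 to 10 days old, grown in serum and passaged; the strain and age of the sorted mice were not given in the labels. Nothing in the labels says whether the pools or cultures were made independently, so p-values measure only the spread between these libraries.

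Mitochondrial ribosomes translate the 13 messenger RNAs that mitochondrial DNA encodes, all of them subunits of the respiratory chain and ATP synthase. The small subunit holds the decoding site and the large subunit holds the peptidyl transferase site, the exit tunnel and the contacts with the inner membrane. One group of their proteins descends from the bacterial ribosome and another was added during the evolution of mitochondria. Promoters of these genes are known for binding sites of the ETS factor GABP, of NRF1 and of YY1. Müller glia rely strongly on glycolysis and keep few mitochondria compared with photoreceptors.

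Promoter sequences were available from RefSeq (GRCm38.p6) for 69 of the 78 genes. In windows from 250 bases before to 50 bases after the start of transcription, and on either strand, the ETS core CCGGAA was found in 40 of 69, which is 58.0%, against 28.7% of the 11154 promoters of genes kept for testing and 16.7% of all 27025 promoters in the table. Its longer form CCGGAAGT, which contains the core, was found in 12 (17.4%, against 8.19% of kept genes). The YY1 motif AAGATGGC was also found in 12 (17.4%, against 4.86%), and the NRF1 motif GCGCATGC in 8 (11.6%, against 5.65%). The GC box GGGCGG was found in 34 (49.3%) and was less frequent than among kept genes (66.2%). The CCAAT box (CCAAT, 39.1% against 43.0%) and the E-box (CACGTG, 7.25% against 11.4%) were not more frequent either. The 5 stretches below are the 150 bases before the start of 3 genes whose values were among the highest in OHT relative to sham (Mrpl33, Mrpl52, Mrpl30) and of 2 that were very low in 1 OHT library and in culture (Mrps24, Mrps30). Capitals mark CCGGAA or GCGCATGC on either strand.
Mrpl33: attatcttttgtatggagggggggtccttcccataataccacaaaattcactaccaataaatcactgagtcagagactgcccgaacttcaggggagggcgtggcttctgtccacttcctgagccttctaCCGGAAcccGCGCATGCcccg
Mrpl52: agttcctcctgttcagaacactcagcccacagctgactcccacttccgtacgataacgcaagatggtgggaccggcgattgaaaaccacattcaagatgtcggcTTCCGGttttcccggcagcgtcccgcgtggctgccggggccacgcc
Mrpl30: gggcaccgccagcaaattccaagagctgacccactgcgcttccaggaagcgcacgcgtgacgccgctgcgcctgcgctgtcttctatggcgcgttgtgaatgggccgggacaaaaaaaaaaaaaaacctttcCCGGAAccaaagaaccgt
Mrps24: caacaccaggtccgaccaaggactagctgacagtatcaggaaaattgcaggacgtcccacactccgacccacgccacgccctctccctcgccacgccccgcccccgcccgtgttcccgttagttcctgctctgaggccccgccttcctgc
Mrps30: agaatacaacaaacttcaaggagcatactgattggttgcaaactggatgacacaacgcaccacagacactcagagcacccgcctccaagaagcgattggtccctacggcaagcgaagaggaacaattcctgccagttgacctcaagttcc
They lie at chr5:31613801-31613950 (Mrpl33, plus strand), chr14:54426759-54426908 (Mrpl52, plus strand), chr1:37890327-37890476 (Mrpl30, plus strand), chr11:5707702-5707851 (Mrps24, minus strand) and chr13:118387253-118387402 (Mrps30, minus strand). Mrpl33, Mrpl52 and Mrpl30 each hold a core close to the start of transcription, and Mrpl33 holds the NRF1 motif right after its core. Mrps24 and Mrps30 show no capitals in these 150 bases, although the whole window of Mrps24 holds the YY1 motif and that of Mrps30 holds an ETS core. Among genes not shown, Mrps26 and Mrpl3, also low in that OHT library and in culture, each hold a core in their 150 bases. Mrpl23 and Mrps21, also among the highest in OHT relative to sham, hold none there, although the whole window of Mrps21 holds a core. Mrpl51, likewise among the highest, holds 2 cores in its 150 bases. Whether a core goes with the direction of a difference was not tested. A match is a match of letters and is no evidence of binding in these cells.

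Depth was 37.8 to 44.5 M recovered reads in sham libraries, 47.6 to 53.6 M in OHT libraries and 66.3 to 76.7 M in cultures. The 10 Müller glia markers were all detected, and they summed to 0.355 to 0.881% of reads in sham, 0.190 to 0.402% in OHT and 0.271 to 0.357% in culture. Markers of microglia and macrophages (12 of 12 detected in every sorted library) took 3.10 to 4.89% in sham and 4.79 to 5.64% in OHT, more than those of Müller glia, and 0.0106 to 0.0163% in culture. Rod markers (10 of 10 in every sorted library) took 0.258 to 2.51% in sham and 0.0835 to 0.327% in OHT. The sorted libraries were thus mixtures by their markers, and in such bulk RNA fewer cells of a type and less RNA per cell cannot be told apart. The part of these cell types in the results below was not tested.

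Summed over the 78 genes, the mitochondrial ribosomal protein transcripts took a small share of each library, and this share was largest in culture. In ppm, reads per 1000000 reads of the library, the sum was 2818, 2334 and 2412 in the sham libraries 1, 2 and 3. In OHT it was 3255, 2786 and 3924, and in culture 5747, 5496 and 5814. Every culture library was above every sorted library, whereas OHT 2 lay below sham 1, so the OHT and sham ranges overlapped. The mean log2 sum was 0.39 higher in OHT than in sham, and this difference lay between 0.26 and 0.51 when 1 library was left out. The mean log2 sum was 0.98 higher in culture than in the sorted libraries. The messenger RNAs encoded in mitochondrial DNA went the other way. They took 12.2, 18.1 and 13.4% of reads in sham, 5.56, 3.84 and 1.98% in OHT, and 0.890, 0.646 and 0.648% in culture. Their reads were very uneven. In the sorted libraries CYTB averaged 48999 ppm and COX1 17511, against 6.86 for COX2, 9.16 for COX3 and 11.4 for ATP6. The sum thus stood for a part of the 13, and the cause was not tested. Each read of a mitochondrial ribosomal protein gene was accompanied by 43.4 to 77.7 reads of the 13 messenger RNAs together in sham, by 5.05 to 17.1 in OHT and by 1.12 to 1.55 in culture, with no overlap between the groups. Because shares of 1 library sum to a fixed total, the OHT minus sham difference of the ribosomal protein sum was also taken over the reads left without these messenger RNAs, where it was 0.22 on the log2 scale.

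**Figure D1:**
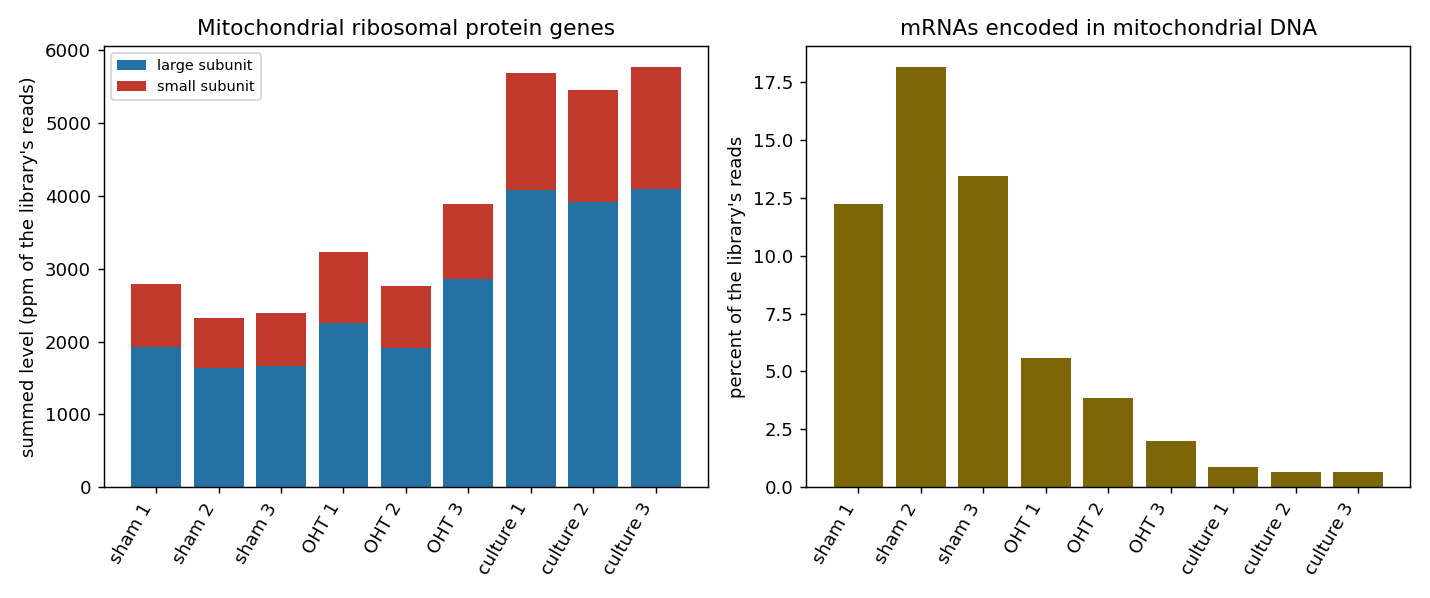
Left, summed level of the large and small subunit genes in each of the 9 libraries, in ppm of the library's reads; right, share of reads (percent) of the 13 messenger RNAs encoded in mitochondrial DNA. Bars rise from the sorted libraries to the 3 cultures on the left, where the sum reached 5496 to 5814, and fall from sham to OHT to culture on the right.

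Between genes, levels were compared per kb of transcript. In the 6 sorted libraries the members spanned 69.0-fold, from 2.40 to 166 ppm per kb, with a median of 23.5. Mrpl42, a mitochondria-specific protein of the large subunit, was highest at 166 ± 65.8 ppm per kb (mean ± SD, n = 6 sorted libraries). It was followed by Mrpl33, a small bacterial-type protein of the large subunit, at 105 ± 62.5 and by Mrps21, a bacterial-type protein of the small subunit, at 99.1 ± 59.7. Mrpl28, a bacterial-type large subunit protein, stood at 84.8 ± 27.3 and Mrps18a at 79.5 ± 24.0. These 5 neighbours in the order differed by less than their SD. The lowest were Mrps5, which lines the channel where messenger RNA enters the small subunit (2.40 ± 0.898), Mrpl47 (2.84 ± 1.19), Mrps35 (3.12 ± 2.26), Mrps25 (3.90 ± 1.24) and Mrpl57 (5.29 ± 2.06). They too overlapped with one another, and all 5 lay far below the 5 highest. The order depended on the length used: per kb of coding sequence, Mrpl42 and Mrpl33 remained at ranks 1 and 2 and Mrps5 at rank 78, whereas Mrpl57 rose from rank 74 to 47 and Mrps25 from 75 to 52. In culture the 5 highest per kb of transcript were Mrpl42 (329 ± 46.8, n = 3), Mrpl20 (272 ± 6.43), Mrps12 (179 ± 10.6), Mrpl28 (175 ± 25.9) and Mrpl30 (159 ± 5.46). Mrpl20 is a large subunit protein with a bacterial counterpart that acts in assembly, and Mrps12 is the protein of the decoding centre.

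The small and large subunits contribute 1 copy of most of their proteins to each ribosome. The summed small to large ratio (in ppm) was 0.449, 0.421 and 0.437 in sham, 0.432, 0.448 and 0.362 in OHT and 0.395, 0.394 and 0.411 in culture. Sham and OHT overlapped, and OHT 3 was the lowest of all 9 libraries. The mean log2 ratio differed by -0.08 (OHT minus sham), which is smaller than the SD of 0.16 among OHT libraries, by 0.015 without OHT 3, and by -0.26 when geometric means over the genes replaced the sums. Every culture was below every sham library. The mean log2 ratio differed by -0.08 between the cultures and the 6 sorted libraries (culture minus sorted), and by 0.051 when 5 genes described below (Mrpl3, Mrps24, Mrps26, Mrps30 and Mrps34) were left out. Per gene and per kb, the median small subunit member stood at 17.5 ± 0.878 ppm per kb in sham (SD, n = 3), 19.0 ± 0.525 in OHT and 33.3 ± 0.648 in culture. The median large subunit member stood at 22.8 ± 3.51 in sham, 28.8 ± 6.72 in OHT and 44.8 ± 1.93 in culture. The median large subunit gene was thus above the median small subunit gene in each group.

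In OHT against sham no gene passed the test. The deposited values were tested as log2(value + 1) with limma over 14403 genes with a mean of at least 10, of which 0 (0.0%) had an adjusted p under 0.05, and the smallest adjusted p of a member was 0.332. All 78 members passed the filter on low values. At an unadjusted p under 0.05, 13 members were higher and 0 were lower in OHT, where 773 of all genes tested (5.37%) were higher and 907 (6.3%) lower. edgeR on the recovered reads called 0 genes, and DESeq2 called 250 genes, none of them a member. The log2 difference was above 0 for 68 of the 78 members (87.2%) and for 45.2% of all genes tested. Its median was 0.61 over members, a fold of 1.53, and -0.12 over all genes, with members ranging from -1.34 to 1.55.

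In 33 of 78 members every OHT library was above every sham library, and in 0 every OHT library was below. Over all genes tested these patterns were found in 9.26% and 9.18%. The count of 33 became 18 (all genes 5.44%) when values were scaled by the total of each library, and 12 (all genes 7.52%) when GC content and transcript length were corrected for, and the median log2 difference of members became 0.36 and 0.23. Scaling by totals moves all genes of a library about alike. The median over all genes, -0.12 with the deposited values, therefore moved with that of members under this scaling. Without OHT 2 the count was 53 (all genes 18.0%). Over the other libraries left out one at a time it was 33 to 48. A separated gene stays separated when 1 library is left out. So these counts could not fall below 33, nor the share over all genes below 9.26%. The 13 members higher at an unadjusted p under 0.05 became 1 with GC content and length corrected for (all genes 4.04%), 3 with library totals (3.02%) and 2 when limma's variance prior had no trend (2.65%). With a library left out they became 9 without sham 1 (4.21%), 1 without sham 2 (1.62%), 5 without sham 3 (4.14%), 7 without OHT 1 (3.03%), 31 without OHT 2 (8.32%) and 9 without OHT 3 (6.20%), so the share over all genes moved as well.

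**Figure D2:**
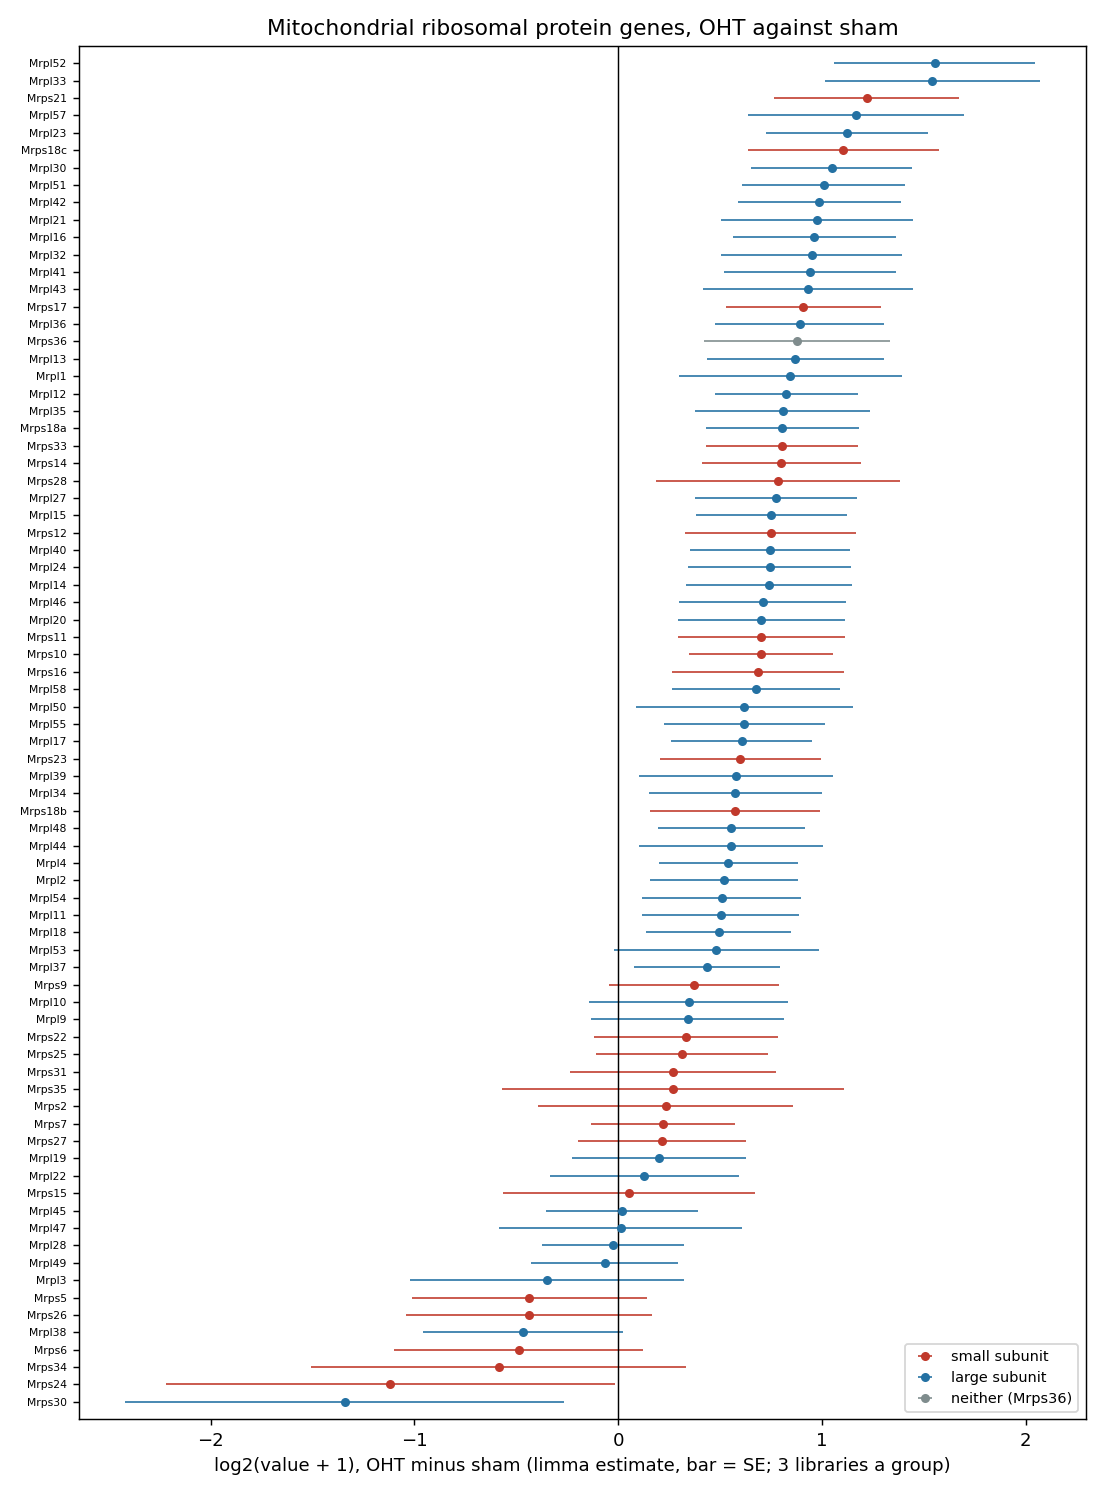
Log2 difference of log2(value + 1) between OHT and sham for each of the 78 members, ordered by size, as estimated by limma; bars are standard errors, colours mark the subunit. 68 points lie right of 0, most bars of the upper members stay right of 0, and none of the members passed the adjusted threshold.

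The members with the smallest p among those higher in OHT were Mrpl52, Mrpl33, Mrpl23, Mrps21, Mrpl30 and Mrpl51. Of these, 5 were in the large subunit, which holds 51 of the 78 members. Mrpl52, a mitochondria-specific protein, had 851, 363 and 550 normalised reads in sham and 1900, 1045 and 2164 in OHT. All OHT libraries were above all sham libraries, with a log2 difference of 1.55 ± 0.49 (SE; limma adjusted p = 0.332). Mrpl33 had 1675, 616 and 1270 normalised reads in sham and 6164, 1767 and 2968 in OHT. The lowest OHT library lay just above the highest sham library, and OHT 1 was far above the rest; the log2 difference was 1.54 ± 0.53 (adjusted p = 0.343 in limma). Mrpl23, a protein at the rim of the exit tunnel, had 1623, 1146 and 1541 in sham and 2029 to 4279 in OHT, a log2 difference of 1.12 ± 0.40. Mrpl30 had 1317 to 1803 in sham and 4692, 2109 and 3453 in OHT (1.05 ± 0.39). Mrpl51 had 961 to 1437 in sham and 3660, 2054 and 2114 in OHT (1.01 ± 0.40). In these 3 genes the groups did not overlap either, and OHT 1 was the highest library. Mrps21 had 1619, 888 and 1275 in sham and 3832, 1561 and 3870 in OHT, so that OHT 2 lay below sham 1; its log2 difference was 1.22 ± 0.45. With GC content and length corrected for, the differences were 0.86 for Mrpl52, 0.47 for Mrpl33, 0.73 for Mrpl23, 0.38 for Mrps21, 0.35 for Mrpl30 and 0.97 for Mrpl51.

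Members with set roles in the ribosome are given next by role. Mrpl12 and Mrpl10 form the stalk that recruits translation factors. Mrpl12 had 1381, 1458 and 1742 normalised reads in sham and 3108, 2410 and 2612 in OHT, without overlap and with a log2 difference of 0.83 ± 0.35 (limma adjusted p = 0.404). Mrpl10 had 948, 1103 and 1307 in sham and 2647, 1357 and 781 in OHT. OHT 3 was its lowest library of the 6, and its difference of 0.35 ± 0.49 was smaller than its error. Mrps12, of the decoding centre, had 1408 to 1749 in sham and 4275, 1601 and 2552 in OHT and overlapped (0.75 ± 0.42). Mrps16, needed for assembly of the small subunit, had 984 to 1337 in sham and 2766, 1241 and 1679 in OHT and overlapped as well (0.69 ± 0.42). Mrpl44, which resembles an RNase III enzyme, had 571 to 703 in sham and 1103, 939 and 716 in OHT, without overlap (0.55 ± 0.45). Mrpl58, a peptidyl-tRNA hydrolase that became a ribosomal protein, had 1346 to 1621 in sham and 3698, 1506 and 2330 in OHT (0.68 ± 0.41). Mrps22, a mitochondria-specific small subunit protein, had 589 to 740 in sham and 1083, 698 and 805 in OHT (0.33 ± 0.45); neither of the last pair separated the groups. Mrps36, outside the ribosome, had 553 to 808 in sham and 1593, 821 and 1316 in OHT, without overlap (0.88 ± 0.46). With GC content and length corrected for, the differences were -0.059 for Mrps36, -0.39 for Mrps22, 0.13 for Mrpl10, 0.19 for Mrpl44 and 0.36 for Mrps12.

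Among the 10 members with a log2 difference below 0, none had an unadjusted p under 0.05. Mrps30 (-1.34 ± 1.08), Mrps24 (-1.12 ± 1.10) and Mrps26 (-0.44 ± 0.60) were below 0 with OHT 3 and above 0 without it. Mrpl38 had 1604, 1256 and 914 normalised reads in sham and 493, 1066 and 1327 in OHT (-0.47 ± 0.49), with OHT 1 lowest. Mrps5 was lowest in OHT 1 as well, at 227 against 402 to 658 in the other 5 libraries (-0.44 ± 0.58). Mrps6 had 298 to 455 in sham and 318, 203 and 236 in OHT (-0.49 ± 0.61). All 3 overlapped between the groups.

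The steadiest members over the 6 sorted libraries were Mrps7, Mrps27, Mrpl49 and Mrpl45. Mrps7, which binds the small subunit's ribosomal RNA, ranged from 1550 to 2021 normalised reads and had a SD of 0.16 on the log2 scale, where the median member had 0.55. Mrps27, a pentatricopeptide repeat protein, ranged from 859 to 1298 (SD 0.21) and Mrpl49 from 1582 to 2573 (SD 0.26). Mrpl45, which ties the large subunit to the inner membrane, ranged from 1534 to 2565 (SD 0.28) with means of 1910 ± 293 in sham and 1966 ± 536 in OHT. The median within-group SD of members on the log2 scale was 0.26 in sham and 0.49 in OHT, against 0.44 and 0.90 over all genes tested. Members thus varied less than the median gene in both groups, and more in OHT than in sham. The genes tested needed only a mean of at least 10 and were not matched to the members for level.

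By subunit, the median log2 difference was 0.35 over the 26 small subunit genes, of which 21 were above 0 and 7 had every OHT library above every sham library. It was 0.68 over the 51 large subunit genes, of which 46 were above 0 and 25 separated. Without OHT 3 the medians were 0.68 and 0.72. With GC content and length corrected for they were 0.07 and 0.25. The 46 bacterial-type members had a median of 0.70 with 20 separated, and the 31 mitochondria-specific members had a median of 0.55 with 12 separated. These are descriptions, and the difference between the subgroups was not tested.

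Shorter genes had larger differences between OHT and sham over all genes; in members the separated share fell with length, while the median did not fall from the middle to the long members. The 26 shortest members (418 to 1018 bases) had a median log2 difference of 0.76, with 14 separated upward (53.8%); the 913 kept genes of the same lengths had a median of 0.72, with 31.0% separated. The 26 members of 1031 to 1849 bases had a median of 0.55 with 12 separated (46.2%), against 0.14 and 15.3% in 2406 genes. The 26 longest (1962 to 7300 bases) had a median of 0.57 with 7 separated (26.9%), against -0.24 and 6.18% in 9338 genes. So the shortest members had about the median difference of other short genes, whereas the longer members lay above genes of their own length. The 13 members higher at an unadjusted p under 0.05 had a median length of 776 bases and the other 65 had 1398. The 85 cytosolic ribosomal protein genes, which are short as well (median 835 bases), were all above 0 with a median of 1.42. What part length, RNA quality or amplification had in these differences was not tested.

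The upward shift was not shared evenly by the 3 OHT libraries. Compared with its own mean over the 6 sorted libraries, a member was above it in 17, 13 and 16 of 78 cases in the sham libraries and in 70, 36 and 58 in the OHT libraries. OHT 1 was the highest library for 56 members, and sham 2 was the lowest for 42. The median deviation was -0.15, -0.46 and -0.30 in sham and 0.85, -0.04 and 0.32 in OHT on the log2 scale, so OHT 2 stood between the sham libraries and the other two OHT libraries. Over all kept genes the median deviation was between -0.05 and 0.09 in every library. In ppm of the library total, the counts were 44, 19 and 17 in sham and 52, 35 and 65 in OHT: on this scale sham 1 was closer to OHT 1, and OHT 3 was the highest. The order of OHT 1 and OHT 3 therefore depended on the scaling, and OHT 2 was the lowest of the OHT libraries under both. Rod markers were 0.258% of reads in sham 1 and 2.51 and 2.02% in sham 2 and sham 3, and their part in this order was not tested.

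**Figure D3:**
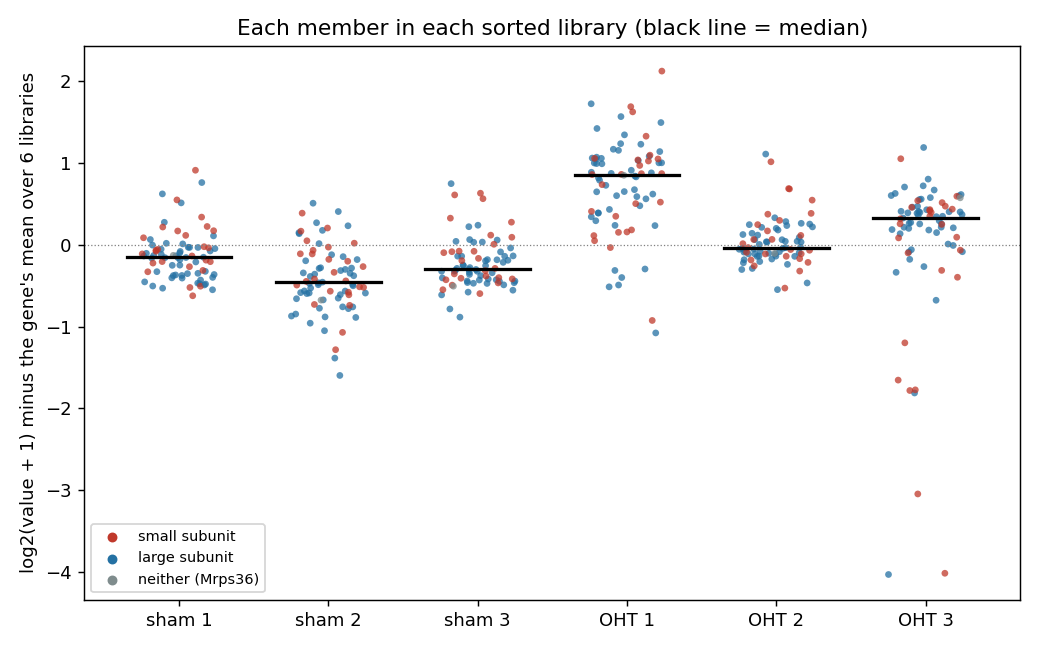
Each dot is 1 of 78 members in 1 of the 6 sorted libraries; the y axis is log2(value + 1) minus the gene's own mean over the 6 libraries, the black line is the median, and colours mark the subunit. Medians are -0.15, -0.46 and -0.30 in sham and 0.85, -0.04 and 0.32 in OHT, and a few members lie far below the rest in OHT 3.

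OHT 3 had low values of a few members, although 58 of the 78 were above their own mean there. In 8 members its value was more than 2-fold below the mean of the other 5 sorted libraries, a pattern that 19.8% of all genes tested showed: Mrpl3, Mrps2, Mrps15, Mrps24, Mrps26, Mrps30, Mrps34 and Mrps35. Mrps30, also known as a gene linked to programmed cell death, had 1601, 1344 and 1586 normalised reads in sham, 1777 and 2038 in OHT 1 and OHT 2, and 56.9 in OHT 3, which is 28.6-fold below the other 5. Mrps24, a protein of the messenger RNA entry site, had 2246, 1376 and 1764 in sham, 2997 and 2413 in OHT 1 and OHT 2, and 72.9 in OHT 3, a 28.2-fold gap. Mrps34, a mitochondria-specific small subunit protein, had 1354 to 3717 in the other 5 libraries and 145 in OHT 3 (12.6-fold). The gaps of Mrps26 (328 against 1260 to 1869), Mrpl3 (256 against 829 to 2110), Mrps35 (136 against 391 to 2053), Mrps15 (643 against 1603 to 4189) and Mrps2 (296 against 476 to 1244) were 2.71-fold to 4.52-fold. Of these 8 genes, 6 were in the small subunit, which holds 26 of the 78 members. In the same library 75 of 78 members exceeded 5 ppm in each of the other 5 libraries, and 6 of them were more than 4-fold lower; over all genes past that level the share was 6.41%. OHT 1 also lacked reads of many genes, 8.94% of those past the level, but of 0 members.

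The cultures were low in a part of these genes. In culture 5 members were more than 2-fold below the mean of the sorted libraries, in ppm, a pattern shown by 29.3% of the 14004 genes kept and present in both tables. They were Mrpl3, Mrps24, Mrps26, Mrps30 and Mrps34, all of them among the 8 low in OHT 3, so the overlap was 62.5% of the OHT 3 list and 100% of the culture list. Over all genes 45.5% of those low in OHT 3 were also low in culture, and 30.4% of those low in culture were low in OHT 3. Both lists used OHT 3, whose low values reduce the sorted mean that the cultures were set against. Mrps30 had 41.0, 34.2 and 37.3 ppm in sham, 27.0, 46.2 and 1.51 in OHT, and 2.37, 3.46 and 4.00 in culture. Mrps24 had 35.0 to 57.5 in the 5 other sorted libraries, 1.93 in OHT 3, and 2.96, 4.76 and 5.68 in culture. Mrps34 had 34.7 to 56.5, then 3.84 in OHT 3, and 8.08, 9.82 and 14.1 in culture. For Mrps26 the values were 28.4 to 33.4, 8.68 in OHT 3 and 7.33 to 12.9 in culture, and for Mrpl3 they were 21.2 to 32.1, 6.77 in OHT 3 and 6.05 to 10.3 in culture. In each of the 5 genes OHT 3 lay within or below the range of the cultures, and the other 5 sorted libraries were above both. The 5 were chosen for being low in OHT 3 and in culture, so this position and the shares below follow largely from the choice. Together these 5 held 5.82 to 7.35% of the members' reads in the other 5 sorted libraries, 0.579% in OHT 3 and 0.466 to 0.810% in culture.

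**Figure D4:**
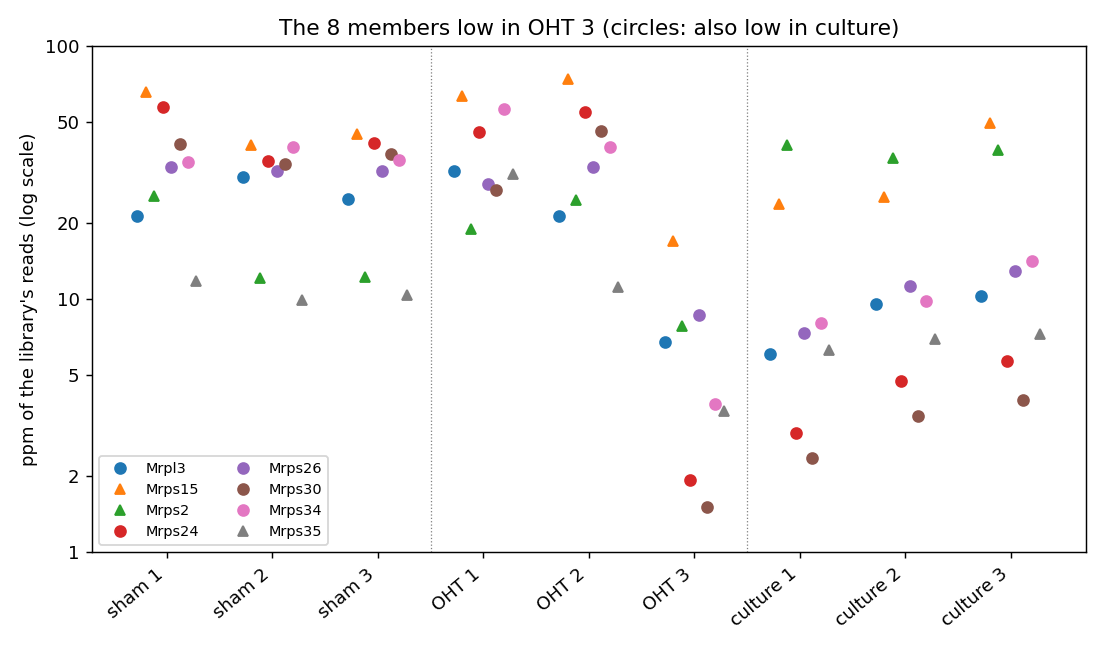
Level of the 8 members low in OHT 3 in each of the 9 libraries, in ppm of the library's reads on a log axis; circles mark the 5 that were also low in culture and triangles the other 3. For the circles OHT 3 sits with the cultures, well below the other 5 sorted libraries, which follows largely from how they were chosen.

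The 5 genes were not alike in length or base composition: their median length was 3319 bases against 1288 in the other members, with lengths from 918 to 4278, and their median GC content was 49.2% against 50.7%. In GENCODE M21, exons of all 5 overlap those of another gene, which holds for 33 of all 78 members and for 36.1% of all kept genes; over all genes the share was 36.9% among the 1248 that were low in both OHT 3 and culture. Mrps24 shares exons with Urgcp on the same strand, and Mrps34 with Nme3 and, on the opposite strand, Mapk8ip3. No source used here says how reads in shared exons were counted, so the level of these genes is uncertain. Urgcp stood at 20.7 ppm in OHT 3 and at 2.88 to 26.8 in the other sorted libraries, and at 62.2 to 77.0 in culture, so it was not low in OHT 3 or in culture. Nme3 stood at 21.3 in OHT 3, at 13.1 to 17.1 in the other sorted libraries and at 2.31 to 3.32 in culture. Microglia and macrophage markers summed to 4.85% of reads in OHT 3, 3.10 to 5.64% in the other sorted libraries and 0.0106 to 0.0163% in culture. Their part in the low values of these 5 genes was not tested.

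Most members were higher in culture. The tables were normalised separately, so culture and sorted libraries were compared in ppm and without a test. The median log2 ratio of culture to sorted means was 0.97 over the 78 members, a fold of 1.96, against 0.19 over all 14004 genes, and 66 members were above 0. Every culture was above every sorted library in 52 members, below in 2 (Mrpl27 and Mrpl48), and 24 overlapped. Over all genes 33.4% were above and 18.2% below. Relative to the median of the 12300 genes with reads in all 9 libraries, the median ratio of members was 0.63. The medians were 0.91 in the small and 0.98 in the large subunit, with 18 of 26 and 33 of 51 genes above every sorted library. Culture and sorted cells differed also in growth in serum, protocol and cell mixture, and the age of the sorted mice was not given. Fibroblast markers, for one, summed to at most 0.0131% in sorted libraries (Lum at 0 in 5 of 6) and to 0.607 to 0.861% in culture. These factors cannot be told apart.

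The largest ratio belonged to Mrps6, a bacterial-type small subunit protein that had 4.61 to 10.7 ppm in the sorted libraries and 85.4, 70.6 and 73.3 in culture, a fold of 10.9. Mrps6 shares exons with Slc5a3, an inositol transporter gene, which rose in the same way from 13.0 ± 6.74 to 133 ± 8.43 ppm, so the reads of the pair cannot be told apart. Mrpl20 came next, with 23.0 to 45.0 in sorted libraries and 211, 202 and 210 in culture (5.80-fold). Mrpl45 had 23.3 to 67.9 and then 136 to 190 (3.64-fold). Mrpl34, Mrps25 and Mrpl51 were 3.59-fold, 3.40-fold and 3.32-fold higher. In all 6 genes the ranges were far apart. At the other end stood Mrps30, Mrps24, Mrps34, Mrpl3 and Mrps26, which were 9.52, 8.81, 3.28, 2.63 and 2.66-fold lower in culture than in the sorted mean, and Mrps35, which was 1.90-fold lower (3.61 to 31.2 in sorted libraries and 6.30 to 7.28 in culture). These last 6 overlapped with the sorted libraries through OHT 3.

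**Figure D5:**
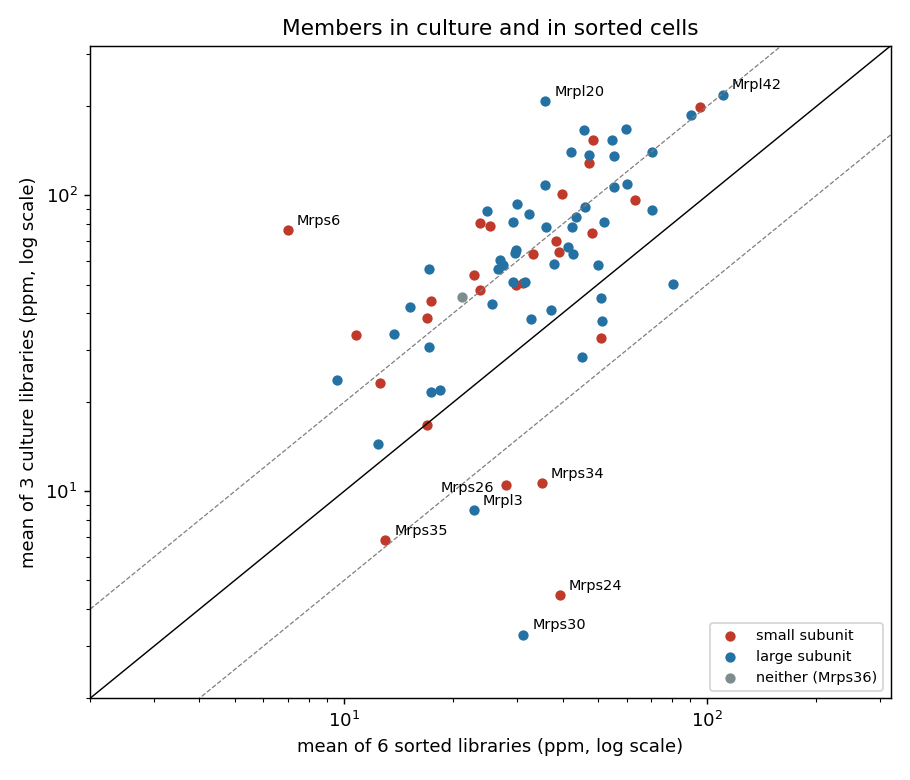
Mean level of each of the 78 members in the 3 cultures against its mean in the 6 sorted libraries, in ppm on log axes; the solid line is equality, the dashed lines are 2-fold away, and colours mark the subunit. Most members lie above equality, Mrps6 and Mrpl20 farthest, and 5 members lie below the lower dashed line.

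Genes that serve the mitochondrial ribosome without belonging to it are set beside all genes tested, which had a median log2 difference of -0.12 with 45.2% above 0. No gene of the following lists passed the adjusted test in OHT against sham. The 5 mitoribosomal proteins whose symbols escape the rule were all above 0 (median 0.43): Chchd1 had a log2 difference of 1.16 ± 0.47, Aurkaip1 of 0.78 ± 0.36, Gadd45gip1 of 0.43 ± 0.59, Ptcd3 of 0.34 ± 0.39 and Dap3 of 0.24 ± 0.42. Of 28 genes for ribosomal RNA modification and ribosome assembly, 12 were above 0 and 16 below, with a median of -0.20. Their extremes were Eral1, a GTPase of small subunit assembly (0.75 ± 0.63), and Ddx28, a helicase of large subunit assembly (-1.40 ± 0.78). Of 20 genes listed as translation factors, some of which encode other proteins, 9 were above and 11 below (median -0.05). They included Slirp at 1.21 ± 0.64 and Letm1 at -1.42 ± 0.55, neither of them a translation factor itself. Of 22 aminoacyl-tRNA synthetase and amidotransferase genes 8 were above and 14 below (median -0.30), with Fars2 at 1.18 ± 0.41 and Yars2 at -1.82 ± 0.89. A list of 20 genes held those for maintenance and transcription of mitochondrial DNA and regulators of nuclear genes such as Nrf1 and Ppargc1a. Of these 20, 7 were above and 13 below (median -0.24), with Tfam at 0.88 ± 0.60 and Ppargc1a at -1.13 ± 0.92. All 13 messenger RNAs of mitochondrial DNA were below 0 (median -1.91), with every OHT library below every sham library in 11 of them, and ND5 had the smallest p (-2.01 ± 0.50, limma adjusted p = 0.332). Among the 13, ND4L, COX2, COX3, ATP6 and ATP8 had few reads, with means of 6.52 to 11.4 ppm in the sorted libraries. Whether these lists differ from the members was not tested.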

How the data were processed

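RNA from 6 pools of GLAST-sorted retinal cells (3 sham, 3 OHT) and 3 primary Müller glia cultures had been reverse transcribed with cDNA amplification and sequenced as 150 bp pairs, per the labels' protocols. Per the submitters' processing notes, bcl2fastq 2.20, Trim Galore 0.6.6, FastQC 0.11.9, STAR 2.7.1a and the mm39 genome were named; for the counting program, the annotation and the normalization, nothing was found in the labels (not given in the sources used here). The deposited signal is a gene count divided by 1 factor per library and not by length. The smallest steps gave whole reads in 100% of values (tolerance 0.05 reads); the step of culture 3 was too close to 1 to be checked alone.

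OHT and sham were compared by limma 3.58.1 (R 4.3.3) on log2(value + 1) over 14403 genes with a mean of at least 10, with Benjamini-Hochberg adjustment at 0.05. Count tests on recovered reads (DESeq2 1.42.0 and the quasi-likelihood test of edgeR 4.0.16), other scalings (TMM, quantile, library totals), pseudocounts, filters, a GC and length correction, a replicate block and leaving out each library were alternatives. The fit was checked on simulated data. Culture and sorted cells, normalised in separate tables, were compared in ppm of the recovered reads, without a test. Lengths and exon overlaps came from GENCODE M21 and promoters from RefSeq (GRCm38.p6), another build than the files', so only names and sequences were carried over. Deviations of sham and OHT libraries with the same replicate number were barely correlated (0.078, -0.025 and -0.045). No label says what the numbers mark, and these correlations cannot exclude a shared litter or day.

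The members and lists were chosen with earlier results of these data known, so no list was given a p. Members named were the highest and lowest per kb, the 6 with the smallest p in each direction, the 6 largest and smallest culture ratios, the 4 largest and smallest SDs, and members with known roles; others were named after their values were seen. With 3 libraries a group, an exact permutation test of 1 value cannot go below p = 0.1. Protein sequences were not used here.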

Additional observations from a re-analysis of the deposited data

How the results depend on the processing

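No mitochondrial ribosomal protein gene passed the adjusted threshold under any of the alternatives run. The count over all genes moved from 0 to 250 with DESeq2 and to 2 with the replicate block, and to between 0 and 12 with 1 library left out. The replicate block left 0 members called, and no label says that the numbers pair the libraries (each number's correlation was at most 0.078). With GC content and length corrected for, alone or with the replicate block, the median difference of members moved from 0.61 to 0.23 and the members separated upward from 33 to 12. Scaling by library totals gave 18 separated members. Leaving out 1 library gave 33 to 53, a count that could not fall below 33 because a separated member stays separated. For the same reason the share over all genes could not fall. The small to large log2 ratio, OHT minus sham, was -0.08; it became -0.26 with geometric means and ranged from -0.14 to 0.015 with 1 library left out. For culture minus sorted it was -0.08, became -0.20 with subunits taken from the symbols and 0.051 without the 5 members low in OHT 3, which was chosen after the data were seen, and ranged from -0.13 to -0.065 with 1 library left out. The difference of the mean log2 summed level, culture minus sorted, was 0.98, and 0.68 when the 20 highest genes were left out of the totals, and the median ratio of members was 0.63 relative to genes with reads in all libraries.

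Of 29 named genes followed through 20 alternatives, 14 changed the sign of their difference at least once. DESeq2 turned Mrps24 to 0.026, Mrps34 to 0.34 and Mrpl3 to 0.10, and edgeR turned Mrps34 to 0.24, Mrpl3 to 0.0042 and Mrpl45 to -0.020. The GC and length correction, with or without the replicate block, turned Mrpl45 to -0.0022, Mrps15 to -0.49, Mrps22 to -0.39 and Mrps36 to -0.059. Mrpl45 was -0.019 with TMM factors, -0.15 with quantile normalization and -0.23 with library totals. Mrps15 was -0.045 with array weights, -0.12 with quantile normalization and -0.20 with library totals. Library totals turned Mrps7 to -0.029 and Mrps27 to -0.034, and array weights turned Mrps35 to -0.19. With 1 library left out, the ranges were -0.11 to 0.77 for Mrpl10, -1.05 to 0.47 for Mrpl3, -0.19 to 0.18 for Mrpl45, -0.20 to 0.15 for Mrpl49, -0.46 to 0.89 for Mrps15, -2.06 to 0.61 for Mrps24, -0.91 to 0.34 for Mrps26, -2.23 to 0.34 for Mrps30, -1.54 to 0.79 for Mrps34 and -0.72 to 1.23 for Mrps35. The positive values of Mrpl3, Mrps24, Mrps26, Mrps30 and Mrps34 were those without OHT 3. The cause of the other changes was not tested. A single read was worth 0.013 to 0.0264 ppm, against 1.51 ppm for the lowest value of any member (Mrps30 in OHT 3).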
